A study of Mus musculus with 2 samples.

Results

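The sebaceous gland spots were 150 of the 2249 kept array spots of the Blank section, and 150 of the 4740 kept in both sections. They were the spots with the largest share of unique molecular identifiers (UMIs, counted RNA molecules) in 6 genes, Defb8, Fa2h, Elovl3, Far2, Pnpla5 and Rarres1, called the rule genes here. Only barcodes with at least 3667 UMIs were ranked. The series holds 2 mouse sections from the calvaria, the roof of the skull, which were frozen in embedding medium. Both carried a bone defect and were harvested at day 7; the Blank defect had no collagen/nHA material and the Col_nHA defect had it. Strain, age, sex and the number of animals are not given in the labels. There was 1 section per group, so no value has a replicate check and no test between conditions was possible. A spot is a small region that can hold several cells of different types, and spots of 1 section are not replicates.

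Sebaceous glands are the oil glands of the skin, attached to hair follicles. Their cells, the sebocytes, start as basal keratinocytes, fill with lipid droplets and then burst, releasing sebum onto the hair shaft. Mouse sebum is rich in wax esters, cholesterol esters and glycerides made from very long and branched fatty acids, so maturing sebocytes carry high levels of the enzymes for fatty acid, sterol and wax synthesis. The genes that chose the spots belong to this setting. Fa2h adds a hydroxyl group to fatty acids, Elovl3 lengthens very long chain fatty acids, and Far2 reduces fatty acids to the alcohols of wax esters. Pnpla5 encodes a lipase of the patatin-like family, Defb8 a beta-defensin, and Rarres1 a protein induced by retinoids.

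Promoter windows of 4 genes are shown because the sterol pathway was among the gene groups with the highest levels in these spots, and because Pnpla5 was one of the genes that chose them. The windows are from RefSeq on GRCm38.p6, run from 250 bases before to 50 after the gene start, and are written 5′ to 3′ on the strand of the gene. Capitals mark every match, on either strand, to 5 motifs. These are the sterol response core TCACNCCAC, the CCAAT box, the E-box CACGTG, the nuclear receptor site AGGTCA and DR1, a direct repeat of that site, which can overlap it. Hmgcs1, Msmo1 and Idi1 encode cholesterol synthesis enzymes.
Hmgcs1, chr13:119690101-119690400, + strand: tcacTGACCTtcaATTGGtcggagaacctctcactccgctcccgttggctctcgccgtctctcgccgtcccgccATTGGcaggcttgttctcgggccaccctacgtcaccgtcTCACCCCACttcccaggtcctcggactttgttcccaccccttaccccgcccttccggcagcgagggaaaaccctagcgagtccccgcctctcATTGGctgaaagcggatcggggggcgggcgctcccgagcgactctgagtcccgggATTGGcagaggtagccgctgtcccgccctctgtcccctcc
Msmo1, chr8:64733529-64733828, - strand: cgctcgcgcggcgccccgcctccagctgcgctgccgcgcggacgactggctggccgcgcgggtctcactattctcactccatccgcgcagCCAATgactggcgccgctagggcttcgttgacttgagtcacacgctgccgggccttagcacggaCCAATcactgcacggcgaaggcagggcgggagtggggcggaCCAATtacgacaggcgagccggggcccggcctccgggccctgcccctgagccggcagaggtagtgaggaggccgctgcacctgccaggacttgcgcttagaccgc
Idi1, chr13:8885356-8885655, + strand: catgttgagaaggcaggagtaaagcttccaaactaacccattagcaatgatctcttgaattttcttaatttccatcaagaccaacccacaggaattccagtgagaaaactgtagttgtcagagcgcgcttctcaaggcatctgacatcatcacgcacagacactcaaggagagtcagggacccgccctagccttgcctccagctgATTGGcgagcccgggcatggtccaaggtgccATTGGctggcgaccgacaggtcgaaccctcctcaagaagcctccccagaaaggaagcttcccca
Pnpla5, chr15:84123126-84123425, - strand: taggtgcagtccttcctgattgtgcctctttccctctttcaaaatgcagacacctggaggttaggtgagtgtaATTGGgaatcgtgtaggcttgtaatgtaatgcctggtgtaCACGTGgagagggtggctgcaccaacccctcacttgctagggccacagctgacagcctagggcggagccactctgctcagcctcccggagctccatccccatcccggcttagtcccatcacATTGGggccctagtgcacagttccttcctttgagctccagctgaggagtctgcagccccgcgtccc
The Hmgcs1 window held the sterol response core, CCAAT boxes and the nuclear receptor site, the Msmo1 and Idi1 windows held CCAAT boxes alone among the 5 motifs, and the Pnpla5 window held an E-box and CCAAT boxes. A CCAAT box stood in 18 of 22 windows of the cholesterol synthesis list (81.8%; 17 of its 23 genes had a window), against 37.4% of all 32851 windows. Among the genes at least 10-fold higher in the gland spots, 60 of 120 windows (50%) held one and 6 (5%) held the sterol response core, against 1.24% of all windows for the latter. In the cholesterol synthesis list 1 of 22 windows (4.55%), that of Hmgcs1, held the core. These matches are letters in a window and not binding sites. Of the rule genes, Defb8, Far2, Pnpla5 and Rarres1 had a window; Fa2h and Elovl3 were not matched.

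The gland spots held 1569713 UMIs, with 3676 to 36352 per spot (median 9345.5) and a median of 3583 genes. The remaining 2099 kept spots had a median of 9783 UMIs and 3392 genes. Mitochondrial genes took a median of 3.34% of UMIs in gland spots and 4.14% in the remaining spots. Kept spots held 88.1% of the 34868368 Blank UMIs. The UMI totals had no gap at the minimum: 265 Blank barcodes, 5 of them gland spots, lay within 10% of it. Both sections carry the same 4992 array barcodes, so a shared barcode is an array position and not a shared cell. No image or spot position was read, so the place of a gland spot in the section is unknown.

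The share of UMIs in the rule genes fell along the ranking without a gap. It was 4.01% in the first spot (1458 of 36352 UMIs), 1.79% at rank 10, 0.633% at rank 50 and 0.322% at rank 100. The last gland spot had 0.25% (13 of 5201 UMIs) and the first spot left out 0.246% (20 of 8146). Rank 200 stood at 0.197% and rank 300 at 0.112%, and 1123 of the 2099 remaining spots had no UMI of the rule genes. The limit of 150 therefore falls on a slope, and the last gland spots hardly differ from the first ones left out. The gland spots held 12748 of the 16816 rule-gene UMIs of the kept Blank spots (75.8%). The first 10 spots held 38.3% of those 12748, and the first 50 held 72.3%. All 150 gland spots held at least 3 of the 6 genes and 72 held all of them; 317 remaining spots held at least 3.

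**Figure D1:**
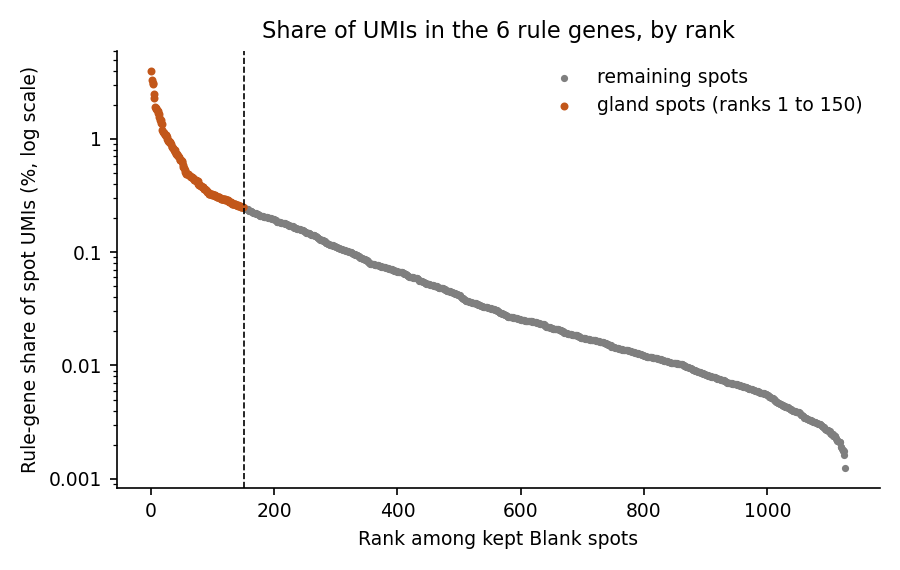
Share of UMIs in the 6 rule genes (percent, log axis) for each kept Blank spot with at least 1 such UMI, by rank. Gland spots are ranks 1 to 150, left of the dashed line; the share runs from 4.01% to 0.25% in them and goes on falling without a gap.

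The levels of the rule genes describe the choice and support nothing. On GRCm38.p6 these protein-coding genes lie at chr8:19445769-19447606 (Defb8), chr8:111345138-111393821 (Fa2h), chr19:46131897-46135694 (Elovl3), chr6:148047416-148182758 (Far2), chr15:84112621-84123175 (Pnpla5) and chr3:67478886-67515523 (Rarres1). CPM, counts scaled to a common total, are taken from the UMIs summed over a group of spots. Each ratio below has an exact 95% conditional binomial interval that covers counting error only. Defb8 stood at 3473 CPM in the gland spots and 47.8 in the remaining spots, a ratio of 72.7 (68.5 to 77.1). Among single gland spots it ranged from 87.5 to 20824 CPM with a median of 1631, while the median remaining spot had 0 and the highest 1791. The groups overlapped, since some remaining spots were above many gland spots. Rarres1 stood at 984 against 14.4 CPM (68.2), Pnpla5 at 152 against 2.27 (66.9), Fa2h at 1962 against 39.0 (50.4), Elovl3 at 638 against 13.8 (46.2) and Far2 at 914 against 22.4 (40.8). Each gene was also read in the 150 spots ranked by the other 5, where its own UMIs had no part in the ranking. Those ratios were 61.9 (58.5 to 65.5) for Defb8, 64.5 (49.0 to 85.7) for Pnpla5, 64.3 (57.8 to 71.7) for Rarres1, 46.8 (43.8 to 50.1) for Fa2h, 44.1 (39.3 to 49.6) for Elovl3 and 37.8 (34.5 to 41.4) for Far2. These rankings shared 130 to 148 of their 150 spots with the gland spots. Because the richest spots weigh most in a sum, the Defb8 ratio was 34.8 with every spot weighted equally, 48.4 without the first 10 spots and 30.0 without the first 50. Equal weight gave 33.2 for Rarres1, 34.0 for Pnpla5, 25.7 for Fa2h, 24.7 for Elovl3 and 21.2 for Far2.

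After thinning every spot to 3000 UMIs, 98.7% of gland spots (95.3 to 99.8, exact binomial interval) held a Defb8 UMI and 96% held a Fa2h UMI, against 14.6% and 13.0% of the remaining spots. The remaining spots differed among themselves. Defb8 was found in 46.7% of the epidermis-rich and 44% of the adipocyte-rich spots defined below, and Fa2h in 54.7% and 30.7%. Choroid-plexus-rich spots had 8% for Defb8 and 4.67% for Fa2h, with a median of 7324.5 UMIs per spot before thinning. Shares near that level in other spots are not read as expression, and whether they are free RNA was not tested. Without thinning the Defb8 shares were 100% in gland, 25.7% in remaining and 14.7% in choroid-plexus-rich spots. Awat1, which was not used to choose the spots, encodes a wax-ester-forming acyltransferase. It was found in 33.3% of thinned gland spots, 1.62% of remaining spots and 1.33% of choroid-plexus-rich spots. Among the remaining spots it was found in 6% of epidermis-rich and 4% of adipocyte-rich spots.

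Over all genes, 1004 of the 10316 genes that reached 10 CPM in either group (9.73%) were at least 2-fold higher in the gland spots than in the remaining spots, and 423 (4.1%) were at least 2-fold lower. The median log2 ratio over those genes was 0.09, and 150 genes were at least 10-fold and 73 at least 20-fold higher. The spots were chosen by expression, so these counts describe the spots and test nothing. Outside the rule genes, the highest ratios among genes with at least 50 CPM were those of Serpina3b, a serine protease inhibitor (301 against 5.25 CPM, ratio 57.3), Awat1 (175 against 3.09, 56.5), Acot5, a peroxisomal thioesterase (80.9 against 1.51, 53.6) and Hsd3b6, a steroid dehydrogenase (52.9 against 0.995, 53.1). Serpina3j (46.4), Elovl4 (42.7), Serpinb6d (41.5), Scd3 (41.3) and Cidea (39.5) followed. This order depends on the weight of the richest spots: with equal weight the ratios were 31.4 for Serpina3j, 30.3 for Serpina3b, 27.0 for Scd3, 25.5 for Hsd3b6, 24.8 for Awat1, 22.9 for Acot5, 22.2 for both Elovl4 and Cidea and 21.6 for Serpinb6d. Of the 38 named genes at least 10-fold higher, 28 had a ratio over 1.5 times smaller with equal weight, and without the first 50 spots 33 had; all 38 remained at least 2-fold higher under both. Serpina3b and Serpina3j belong to a family of close copies, and how the authors' counting split such reads is not given. The lowest ratios belonged to other tissues of the section: Kl (0.0231), Bglap (0.0304), Bglap2 (0.0317), Ttr (0.0578), Col11a2 (0.0632), Alpl (0.0749), Ibsp (0.0826), Enpp2 (0.0834), Mt3 (0.0985) and Ptgds (0.154). Bglap, Ibsp and Alpl mark osteoblasts, and Kl, Ttr and Enpp2 are high in choroid plexus. When the choroid-plexus-rich spots were left out of the remaining spots, the ratios were 0.666 for Ttr, 0.707 for Enpp2 and 0.528 for Ptgds, within 2-fold, and 0.245 for Kl and 0.193 for Mt3.

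A second sebaceous list was drawn up with earlier results of these data known, so it is no independent check of the label. It holds 12 genes that did not choose the spots. Of these, 4 (Dgat2l6, Mc5r, Plin5 and Cyp4f39) did not reach 10 CPM, and 4 (Scd3, Awat1, Awat2 and Acsbg1) reached it in the gland spots alone, so that they had to differ. The other 4, Mgst1, Krt79, Cidea and Soat1, also reached it in the remaining spots, and each was at least 2-fold higher in the gland spots. Soat1, which esterifies cholesterol, stood at 777 CPM (ratio 9.81), Krt79, a keratin of the gland duct, at 915 (21.1, or 11.6 with equal weight) and Mgst1, a glutathione transferase, at 821 (8.09). Cidea, a lipid droplet protein, stood at 466 (39.5) and Awat2, another wax synthase, at 21.7 (17.1, or 10.2 with equal weight). Krt79 in single gland spots ran from 0 to 3210 CPM with a median of 523, and 137 of 150 spots held it; the median remaining spot had 0. Epidermis-rich spots below are the 150 other Blank spots richest in the cornified-layer genes Krt10, Krt77, Lor, Flg2, Krtdap and Sbsn. Adipocyte-rich spots are the 150 other spots richest in the adipocyte genes Adipoq, Plin1, Retn, Lep, Cfd and Cidec. High levels of these genes in the spots they chose follow from the choice. Over the epidermis-rich spots 7 of the 8 measured members were at least 2-fold higher and 1 was within 2-fold. Over the adipocyte-rich spots all 8 were higher. After thinning, Krt79 was found in 74.7% of gland, 56.7% of epidermis-rich and 25.3% of adipocyte-rich spots. The levels of Mgst1, Krt79, Cidea and Soat1 describe the group as a whole and do not test the label. The spots also held epidermal genes, as described below. In the lists that follow, members that reached 10 CPM through the gland spots alone had to have a ratio above 1, though not always 2-fold. The counts are descriptions.

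Fatty acid synthesis and desaturation were led by Scd1, the main stearoyl-CoA desaturase of skin. It stood at 7359 CPM in the gland spots and 263 in the remaining spots, a ratio of 28.0 (27.2 to 28.8). Every gland spot held Scd1, from 1100 to 23685 CPM with a median of 4779, and the median remaining spot had 88.3. Presence of Scd1 was not particular to them. After thinning to 3000 UMIs, 97.3% of epidermis-rich and 90% of adipocyte-rich spots held it. Of 16 measured members of this list, 11 were at least 2-fold higher and 1 (Fads3) was at least 2-fold lower, with a median log2 ratio of 2.17; 9 of the 14 that reached 10 CPM in the remaining spots were higher. Fasn, the fatty acid synthase, stood at 763 CPM (10.1), Acacb, an acetyl-CoA carboxylase, at 278 (19.5) and Acly, which supplies acetyl-CoA, at 479 (5.95). Members of 1 family did not move together: Scd2 had a ratio of 0.80 and Fads1 of 0.72, and Fads2 had 1 UMI. Reads of the Scd paralogs may be shared, so their split is uncertain. Weighted equally by spot, the ratio was 15.7 for Scd1. Over the epidermis-rich spots 10 of the 16 members were higher and none lower. Over the adipocyte-rich spots 9 were higher and 3 lower.

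Very long chain elongation and the wax and ester enzymes showed the same unevenness. Of 11 measured elongation genes, 8 were at least 2-fold higher and 2 at least 2-fold lower (median log2 ratio 2.54). Over the epidermis-rich spots 7 were higher and 1 lower, and over the adipocyte-rich spots 8 were higher and 1 lower. Elovl4, which makes the longest chains, stood at 2789 against 65.3 CPM (42.7, interval 40.4 to 45.1), Elovl6 at 1800 (33.1, or 17.1 with equal weight), Elovl5 at 695 (10.5) and Elovl1 at 128 (1.39). Hsd17b12 and Hacd2, which catalyse the later steps of the elongation cycle, had ratios of 13.4 and 16.2; the lower 2 were Hacd1 (0.41) and Hacd4 (0.44). Of 12 measured wax, glyceride and sterol ester genes, 6 were higher and none lower by 2-fold, among them Awat1, Awat2, Dgat1 (4.84) and Dgat2 (5.61), while Far1, the paralog of Far2, had a ratio of 0.87. Of the 9 that also reached 10 CPM in the remaining spots, 4 were higher. Over the epidermis-rich spots 4 of the 12 were higher (median log2 ratio 0.93). Over the adipocyte-rich spots 3 were, with a median log2 ratio of 0.07, and none was lower in either comparison. Over the epidermis-rich spots Dgat2 had a ratio of 0.80, so its level was not set apart from epidermis.

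**Figure D2:**
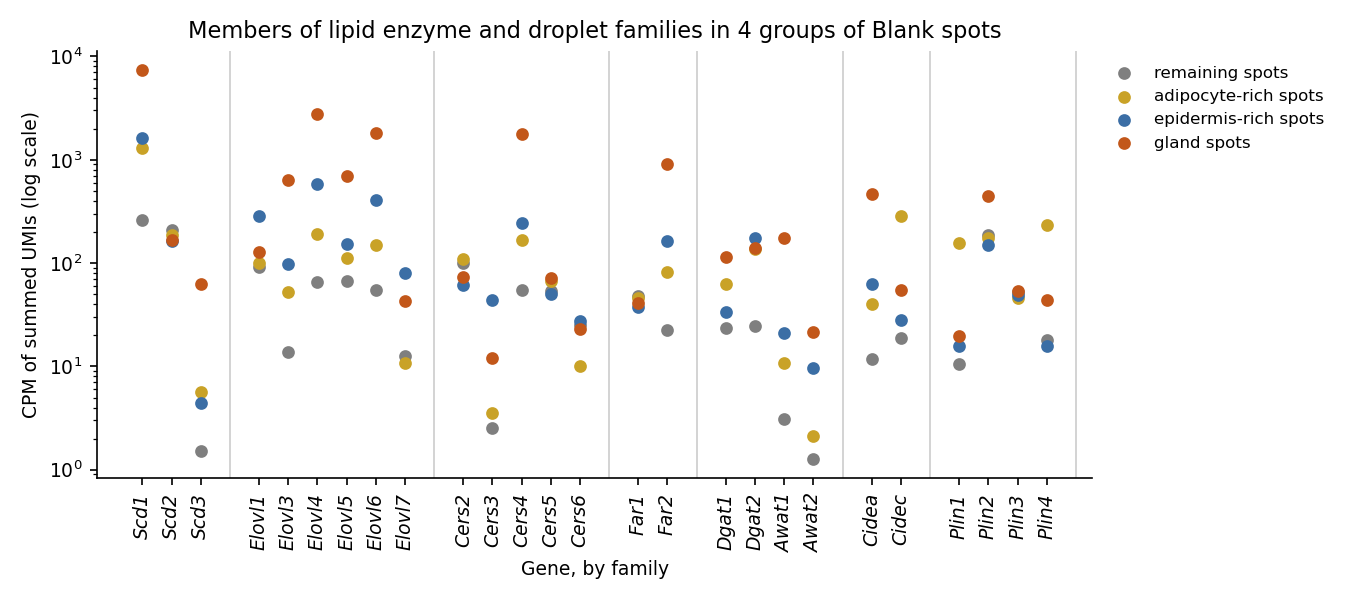
CPM of summed UMIs (log axis) for members of lipid enzyme and droplet families in gland, epidermis-rich, adipocyte-rich and remaining spots of the Blank section, with 150, 150, 150 and 2099 spots. Elovl3 and Far2 helped choose the gland spots, and Cidec and Plin1 helped choose the adipocyte-rich spots. Scd1, Elovl4, Elovl6, Cers4 and Cidea are highest in gland spots, while Cidec, Plin1 and Plin4 are highest in adipocyte-rich spots.

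In the lipid droplet list, 9 of 15 measured members were at least 2-fold higher than in the remaining spots and 7 were at least 2-fold lower than in the adipocyte-rich spots. Over all genes counted in those comparisons the shares were 9.73% higher and 8.1% lower. Mgll, which cleaves monoglycerides, stood at 1450 CPM (23.9, or 14.5 with equal weight), and Plin2, a coat protein of droplets in many cell types, at 445 (2.4). Cidea stood at 466 CPM in gland spots and 40.0 in adipocyte-rich spots, while its relative Cidec stood at 54.8 and 283. Plin1 (19.7 against 158 CPM) and Plin4 (44.0 against 233) were likewise lower than in adipocyte-rich spots. Cidec and Plin1 helped choose the adipocyte-rich spots, so their direction was built in, while Plin4 and Cidea had no part in that choice.

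In the cholesterol synthesis list all 23 members were measured; 21 were 2-fold higher or more and none lower, with a median log2 ratio of 2.99. Of the 21 members that reached 10 CPM in the remaining spots, 19 were higher. The exceptions were Ebp (1.64) and Sc5d (1.46), both late steps of the pathway. Msmo1, a sterol demethylase, stood at 1678 CPM (29.5, or 17.5 with equal weight), Cyp51, another sterol demethylase, at 765 (17.8), Hmgcs1, an early enzyme of the pathway, at 685 (11.8) and Idi1, an isomerase, at 333 (19.7, or 11.6 with equal weight). Over the epidermis-rich spots, which also make sterols, 15 of the 23 were at least 2-fold higher and over the adipocyte-rich spots 18 were, against 5.69% and 7% of all genes counted in those comparisons. Srebf1 and Srebf2, which encode the sterol-regulated factors, had ratios of 2.04 and 2.27; with equal weight Srebf1 was within 2-fold, at 1.95.

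Of the 32 measured peroxisome genes, 20 were at least 2-fold higher than in the remaining spots and none lower (median log2 ratio 1.33), and 17 of the 29 that reached 10 CPM in the remaining spots were higher. Over the epidermis-rich spots 17 of 33 measured members were higher and none lower, and over the adipocyte-rich spots 15 of 33 were higher and 2 lower. Peroxisomes shorten very long chains and make ether lipids. Scp2 stood at 848 CPM (4.6), Cat at 330 (2.82) and Acaa1a at 412 (3.73), and Acox2 (21.1), an oxidase of branched chains and bile acid precursors, and Pex11a (12.8), a division factor, had the largest ratios. In the ceramide list 5 of 17 were higher, 3 of them having reached 10 CPM in the gland spots alone, and 1 was lower, with a median log2 ratio of 0.23. Among all genes counted 9.73% were higher and 4.1% lower. Over the epidermis-rich spots 1 of the 17 was higher and 3 lower (median log2 ratio -0.17). Over the adipocyte-rich spots 6 were higher and none lower (0.57). Cers4 was at 1772 CPM (32.1, or 19.8 with equal weight), while Cers2 (0.74) and Cers5 (1.33) were within 2-fold. Sptlc3 (22, or 13.7 with equal weight) also stood apart from Sptlc2 (0.81).

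Of 13 measured factor and receptor genes tied to sebocytes, 7 were at least 2-fold higher, at levels of 171 CPM or less except for the Cebp pair. Of the 10 that also reached 10 CPM in the remaining spots, 5 were higher. The other 3 measured members, Pparg among them, reached it in the gland spots alone. Pparg, the nuclear receptor of fat and gland cells, stood at 22.3 CPM on 35 UMIs (3.69, interval 2.49 to 5.33). Cebpb and Cebpa had ratios of 4.28 and 3.41, and Sox9 3.08. Against epidermis-rich spots Cebpa, Cebpb and Sox9 were within 2-fold, at 1.34, 1.29 and 1.46, and Pparg was at 3.17. In the retinoid and steroid list 8 of 14 were higher, led by Hsd3b6 and Rdh12 (25.5, or 16.2 with equal weight), a retinol dehydrogenase. Of the 8, 4 reached 10 CPM in the gland spots alone. Over the epidermis-rich spots 4 of the 14 were higher and over the adipocyte-rich spots 7, with none lower. In the list for cell bursting (holocrine secretion) and lysosomes, 2 of 9 were higher and none lower, with a median log2 ratio of -0.38. Of the 8 that also reached 10 CPM in the remaining spots, 1 was higher, against 9.73% of all genes counted. Over the epidermis-rich spots none of 12 was higher and 4 were lower. Of the antimicrobial genes 4 of 8 were lower, and the 3 that were higher had reached 10 CPM in the gland spots alone; Defb6, a beta-defensin, stood at 75.2 CPM (13.8, or 8.53 with equal weight), while S100a8 and S100a9, neutrophil proteins, were at 0.34 and 0.29.

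The gland spots held epidermal genes as well. Sebocytes start as basal keratinocytes, so basal genes do not tell gland from epidermis. In the hair follicle stem cell and outer root sheath list 3 of 10 members were higher and 1 lower, with Krt75 at a ratio of 14.1. Of these 10, 2 had reached 10 CPM in the gland spots alone. Gland, follicle and epidermis sources cannot be told apart in these sums. Of the 10 basal epidermis genes 8 were at least 2-fold higher than in the remaining spots, and of 12 measured suprabasal and cornified genes 11 were; 2 basal genes and 1 suprabasal gene had reached 10 CPM in the gland spots alone. Krt14 stood at 2375 CPM (6.31, or 4.10 with equal weight) and Krt10 at 1301 (3.62). Krt10 in single gland spots ran from 0 to 11278 CPM with a median of 704. Against the epidermis-rich spots none of 13 suprabasal genes was higher and all 13 were at least 2-fold lower (median log2 ratio -2.28). Over all genes in that comparison 639 of 10350 (6.17%) were lower. All 6 genes that chose the epidermis-rich spots, Krt10 among them, belong to this suprabasal list, so its direction was largely built in. The suprabasal count fell to 2 members higher when 75 spots were taken in place of 150. Of the 1004 genes higher than in the remaining spots, 308 were also at least 2-fold higher than in the epidermis-rich spots, 528 were within 2-fold and 168 were at least 2-fold lower. Against the epidermis-rich spots 589 of 10350 genes were at least 2-fold higher, with the highest ratios for Clstn3 (14.7), Scd3 (14.2), Serpina3j (13.8) and Rarres1 (11.3).

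Adipocyte genes were mixed in too. Of the 150 gland spots, 24 were also among the 150 richest in the adipocyte ranking, 18 among the 150 richest in the epidermis ranking and 40 in one or the other. White adipocyte genes were higher for 5 of 10 members (median log2 ratio 1.03), with Cfd at 523 CPM (2.37) and Adipoq at 45.2 (2.21). Without the 40 spots the count was 0. Against the adipocyte-rich spots 10 of 12 were at least 2-fold lower and none higher, while over all genes there 731 of 10447 (7%) were higher and 846 (8.1%) lower. The highest ratios over the adipocyte-rich spots were those of Acot5 (37.8), Rarres1 (20) and Panx3 (19.3). Thinned shares of spots with an Adipoq UMI were 16% in gland, 50.7% in adipocyte-rich and 2.67% in choroid-plexus-rich spots. Ucp1, the defining brown fat gene, had no UMI in the gland spots. It did not reach 10 CPM in the remaining spots either, so its absence tells little. Of the 3 measured brown adipocyte genes Cidea alone was higher.

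Mast cell genes were higher for 4 of 5 measured members, with Mcpt4 at 188 CPM (3.92), and wound epidermis genes for all 7 measured, with Krt6a at 154 (5.41, or 3.53 with equal weight). Of these, 2 mast cell and 3 wound genes had reached 10 CPM in the gland spots alone, and with 75 spots taken the counts were 2 and 2. The melanocyte genes Dct (4.52, or 2.92 with equal weight) and Pmel (3.21) were both higher and likewise reached 10 CPM in the gland spots alone. Summed, the mast cell list took 0.0356% of gland UMIs, 0.028% of epidermis-rich, 0.0723% of adipocyte-rich and 0.00141% of choroid-plexus-rich UMIs. Their part in the gland genes was not tested. Dermal fibroblast genes were within 2-fold for all 9, at 7.9% of gland UMIs and 9.57% of remaining UMIs, and macrophage genes were within 2-fold except Lyz2 (0.48). Osteoblast genes were lower for all 6 measured, with or without the choroid-plexus-rich spots among the remaining spots. Choroid plexus genes were lower for all 6, but without those spots 2 reached 10 CPM and neither was 2-fold lower. Fewer cells of a type and less RNA per cell cannot be told apart in these sums.

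**Figure D3:**
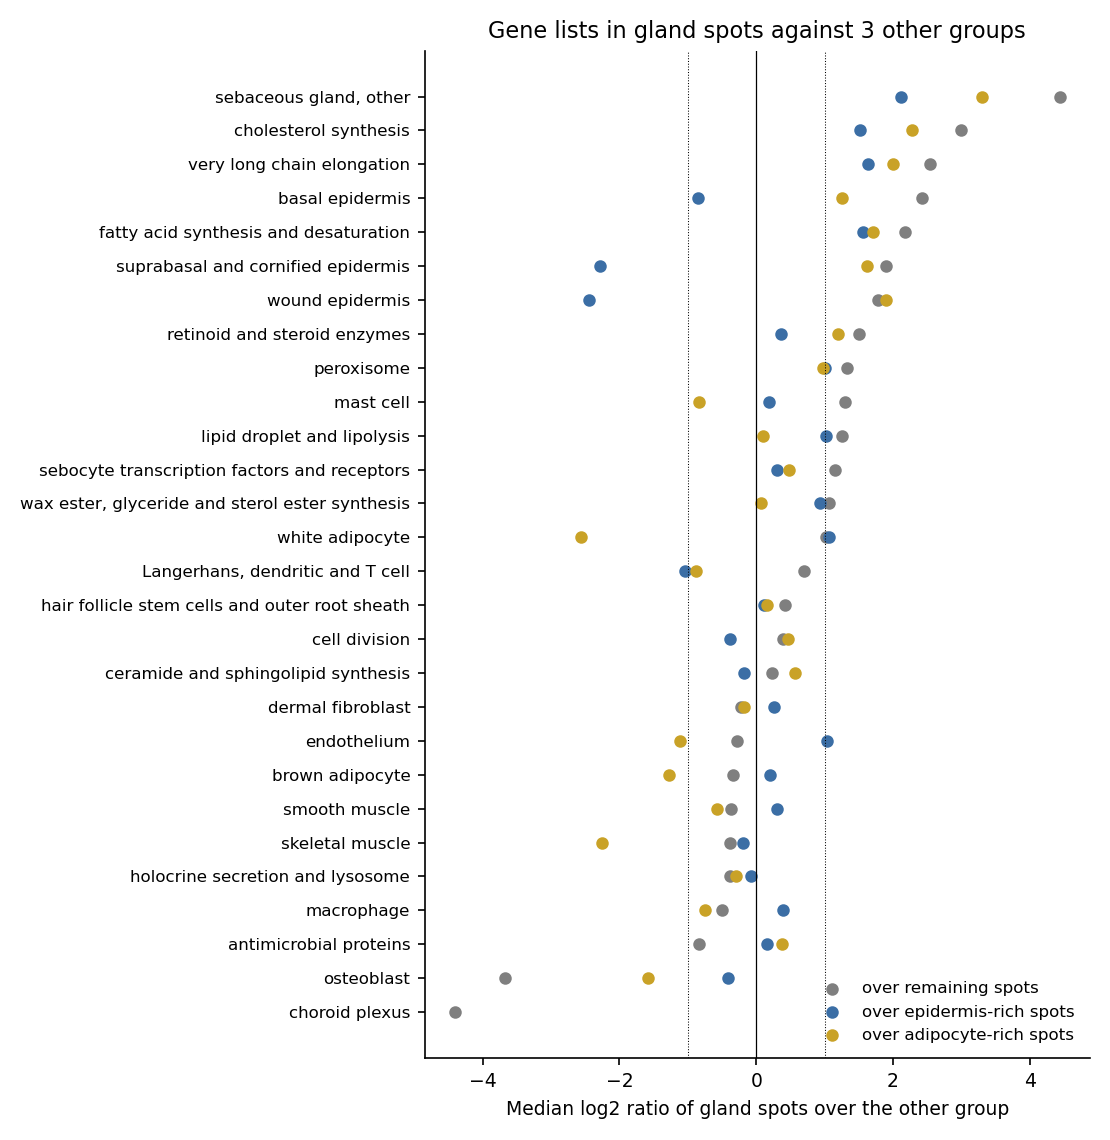
Median log2 ratio of the gene lists in gland spots over the remaining, epidermis-rich and adipocyte-rich spots, over the members that reached 10 CPM in either group; lists with at least 3 measured members are drawn and the dotted lines mark 2-fold. The fatty acid, elongation and cholesterol lists lie right of 0 against all 3 groups, while the epidermis lists lie right of 0 against remaining spots and left of 0 against epidermis-rich spots. The suprabasal and white adipocyte lists hold the genes that chose the epidermis-rich and the adipocyte-rich spots, so those positions were largely built in.

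Within the 150 gland spots the lipid genes and the suprabasal genes ran in opposite directions along the ranking. From ranks 1 to 50, 101 to 150 and 201 to 300, Scd1 was at 12781, 3193 and 2083 CPM, while Krt10 was at 403, 2120 and 2922. The last of these bins lies outside the gland spots, and its values continue the slope. Across the 150 spots the rule-gene share had a Spearman rho of 0.849 with the elongation list, 0.845 with the fatty acid list, 0.808 with the cholesterol list and 0.783 with the peroxisome list. Without the first 50 spots these were 0.589, 0.554, 0.595 and 0.433. The rho was -0.413 with the suprabasal list, -0.467 with dermal fibroblasts, 0.008 with white adipocytes and 0.241 with total UMIs. Without the first 50 spots these were -0.235, -0.125, 0.173 and 0.153. For the basal epidermis list the rho was -0.184, and -0.0916 without the first 50, and for the wound epidermis list -0.193 and -0.0615. All spots share 1 library, and shares of a common total are tied to each other, so these are descriptions with no p-value. Cholesterol genes ran from 0.173% to 4.08% of a spot's UMIs and suprabasal genes from 0.0272% to 4.49%.

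**Figure D4:**
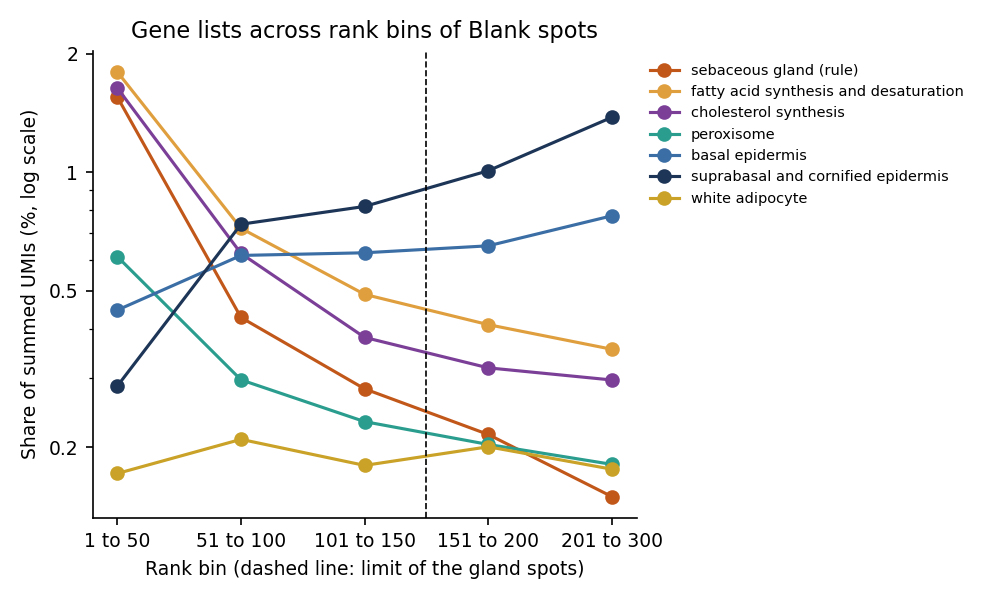
Share of summed UMIs (percent, log axis) of 7 gene lists in 5 successive rank bins of Blank spots; the dashed line is the limit of the gland spots. Fatty acid, cholesterol and rule genes fall from the first bin on, and suprabasal genes climb from 0.286% to 1.38%.

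**Figure D5:**
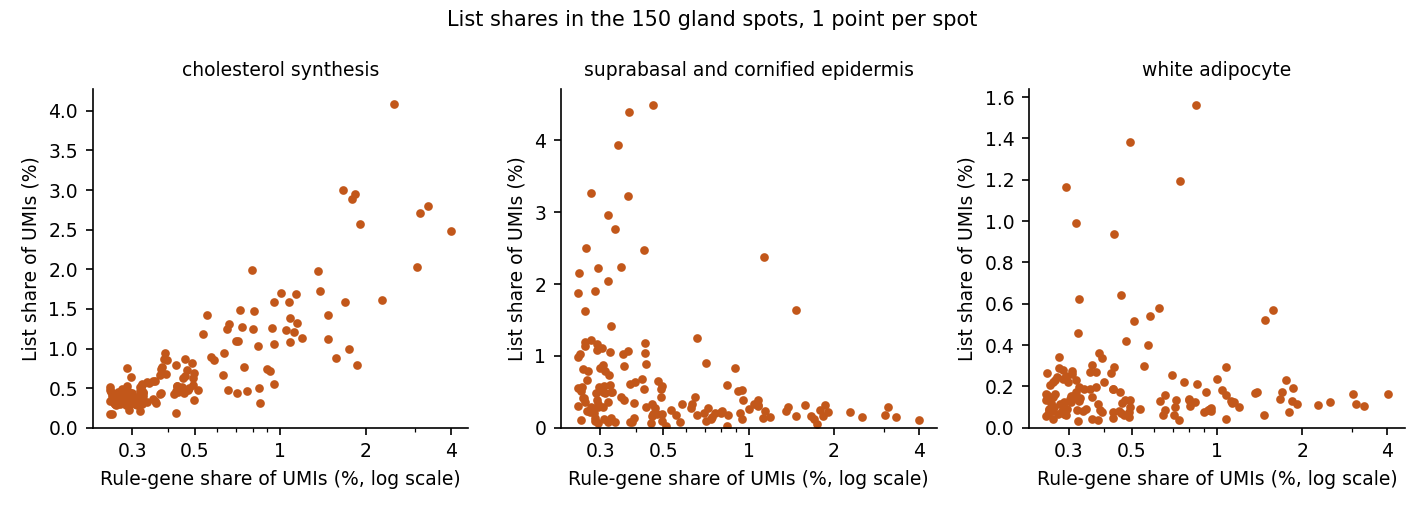
Share of a spot's UMIs (percent) in 3 gene lists against its rule-gene share (percent, log axis), 1 point per gland spot. Cholesterol genes go up with the rule-gene share (rho 0.808), suprabasal genes are mostly higher at low shares (rho -0.413), and white adipocyte genes have a rho of 0.008; without the first 50 spots these were 0.595, -0.235 and 0.173.

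The same genes were read in the Col_nHA section to place the Blank spots, which compares 2 libraries and not the treatments. Over its 2491 kept spots Defb8 stood at 2.31 CPM on 93 UMIs, against 223 CPM over all kept Blank spots, a ratio of Blank over Col_nHA of 96.6 (78.7 to 119.8). Fa2h stood at 11.2 against 137 CPM, Far2 at 5.09 against 67.9, Elovl3 at 5.58 against 45.8, Rarres1 at 7.44 against 64.0 and Pnpla5 at 0.77 against 9.9. Awat1 stood at 1.84 against 11.9 CPM. In the 150 Col_nHA spots ranked highest by the same genes, the rule-gene share had a median of 0.0201% and a highest value of 1.34%, against 0.425% and 4.01% in Blank. Those spots held Krt14 at 6271 CPM, Krt10 at 133 and Scd1 at 842. The amount of skin taken with each section is not given, so section and sampling cannot be told apart.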

How the data were processed

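Raw UMI counts per gene and barcode were deposited by the authors for 1 Blank and 1 Col_nHA section; per the file headers they come from Cell Ranger 4 output, and per the submitters' processing notes Space Ranger was used with genome build mm10 (no version stated there). One protocol text among the labels is that of droplet single cells; the remaining labels, and the 4992 barcodes, are those of a spatial array. The matrices hold 31053 genes; 30934 of their IDs matched a gene name table.

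The members and lists were chosen with earlier results of these data known. Barcodes with at least 3667 UMIs (Blank) and 4646 (Col_nHA, an Otsu threshold) were kept and ranked as described, and counts were summed and scaled to CPM. Higher and lower mean 2-fold among genes that reached 10 CPM in either group. Intervals are exact at 95%: conditional binomial for ratios, Poisson for CPM and binomial for shares; they cover counting error only. A gene at 0 in a group was set at a floor of 3 counts, and no ratio was given with both groups at or under it. The 32 lists hold 386 of 389 symbols; Sts, Krt85 and Muc19 were not found. Named by rule (136 genes) were the 6 rule genes, the 15 highest and 10 lowest ratios of at least 50 CPM leaving out mitochondrial, ribosomal, haemoglobin and unnamed genes, 3 abundant and 2 most different members of each list, and the 8 highest over epidermis-rich and adipocyte-rich spots; other members were named after their values were seen. Epidermis-rich, adipocyte-rich and choroid-plexus-rich spots were the 150 other Blank spots richest in 6 genes each. Spot shares used 3000 thinned UMIs.

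Alternatives were other spot numbers, UMI and CPM minimums, rankings without each gene, 3 scalings, other compared spots, and 3 choices added after the data were seen. On simulated counts of 9525 genes, 95.7% of intervals held the true ratio of gland over remaining spots, and 100% of genes set at 3-fold and 0% of genes set at 1.2-fold were counted as higher. The simulated counts had no spread between spots and no choice of spots by expression. This coverage therefore does not carry over to the real spots. Python 3.11.15, numpy 2.4.6, scipy 1.17.1, pandas 2.3.3 and matplotlib 3.10.9 were used. Some genes are not reported here.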

Additional observations from a re-analysis of the deposited data

Results flagged for a closer look

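Below the UMI minimum, 51 of 2743 Blank barcodes (1.86%, exact binomial interval 1.39 to 2.44) had a rule-gene share at or above that of the last gland spot, on at least 3 rule-gene UMIs each. They were left out of the ranking by depth alone. Their median depth was 1874 UMIs, and together they held 487 rule-gene UMIs, Scd1 at 3642 CPM, Elovl4 at 1015 CPM and 4 UMIs of Awat1. Whether they lie over tissue was not tested.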

How the results depend on the processing

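No result reversed under the alternatives run, and among the main counts, shares and relations 232 of their comparisons with an alternative stayed within 1.5 times or within their interval. The exceptions among these follow. The number of genes at least 2-fold lower in gland spots than in remaining spots was 749 with 75 spots taken, 648 at a 5 CPM minimum and 125 at 50 CPM, where the number higher was 452. Suprabasal members higher numbered 2 with 75 spots taken. White adipocyte members higher numbered 2 at 50 CPM, 8 when compared without epidermis-rich and adipocyte-rich spots, and 0 in gland spots without those also rich in either kind. Over epidermis-rich spots, the genes higher numbered 982 with 75 and 384 with 300 spots in that group, and the genes lower 391 with 300. The median share of gland spots with a rule-gene UMI was 75% at 3000 UMIs, 46% at 1000 and 94.3% without thinning. The rho with the cholesterol list was 0.757 over 100 spots. The cause of these changes was not tested. Among single genes and smaller lists, 614 of 2992 log2 ratios left their counting interval, 48 of them, in 23 of 136 genes, losing a 2-fold difference, and 40 counts of list members changed by over 1.5 times. With equal weight for each spot, 28 of the 38 named genes at least 10-fold higher had a ratio over 1.5 times smaller. Across the scalings the median of all log2 ratios fell by 0.066 at most. No paired analysis was possible because each group holds 1 section. Precision rests on counts in 1 library per section.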

Other observations

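Of the 10316 genes counted, 239 were at least 2-fold higher in the gland spots than in the remaining, the epidermis-rich and the adipocyte-rich spots alike. Among genes outside the lists, Clstn3, a calsyntenin, stood at 77.7 CPM in gland spots against 2.51 in remaining spots (ratio 31), Panx3, a pannexin channel, at 96.2 against 6.62 (14.5), and Cyp2g1, a cytochrome P450, at 66.9 against 1.89 (35.4, or 19.0 with every spot weighted equally). Cell division genes were near the level of the remaining spots, with a median log2 ratio of 0.39 over 10 members; 1 member, Mcm5, was at least 2-fold higher (2.05) and had a ratio of 1.82 with equal weight.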
